A study of Anopheles gambiae with 15 samples.

Results

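Among 16884 mosquito probe sets, 62 (0.367%) were bright in the gastric caeca and the posterior midgut of Anopheles gambiae larvae and clearly dimmer in the anterior midgut and the hindgut. A probe set is a group of short probes on an array that together give 1 value, for 1 transcript or for several that share sequence. Members were chosen from the measured values themselves. The 3 arrays of each gut section were averaged, the 4 section means were sorted, and a probe set was kept when the largest gap between neighbouring means was at least 1 log2 unit and placed caeca and posterior midgut above it and anterior midgut and hindgut below it. Levels and differences among the 4 sections are therefore a description of how members were chosen, and no test supports the gap itself.

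All groups were 4th instar larvae of the G3 strain kept at 28 °C with 12 h of light and 12 h of dark. Guts were cut into 4 sections, of which the hindgut section includes the Malpighian tubules. Each section array holds pooled material of 1000 guts and each of the whole-larva arrays that of 200 larvae, and the labels name no treatment or mutation. The sample descriptions name 70% ethanol for the section samples and none for whole larvae. Pool size and ethanol thus cannot be told apart from the difference between sections and whole larvae. There were 5 groups of 3 biological repeats, 15 arrays together. The p-values below measure the spread between these pools. In the common model, this spread was taken for each probe set over all 5 groups, not only over the groups compared. The members' median SE was thus 0.37 in every comparison of a group with another. Their median SD was 0.54 in anterior midgut and 0.30 in caeca. Pooling averages over individual larvae, so differences between larvae are not measured.

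The larval mosquito gut is a tube with different tasks along its length. The caeca, blind sacs at the anterior end, secrete and absorb, the anterior midgut is known for its alkaline contents, and the posterior midgut carries much of the digestion and uptake of food. The hindgut and Malpighian tubules handle ions, water and waste. Caeca and posterior midgut are thus separated in the body by the anterior midgut, and fluid between the food envelope and the gut wall is held to move forward from the posterior midgut towards the caeca.

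No file or table used here pairs probe set IDs with genes. The RefSeq gene table of assembly idAnoGambNW_F1_1 matched 0 of the 62 member IDs, so members are given by ID and no gene name, role or sequence is attached to them. For the same reason the section labels could not be checked against marker genes. Whole pieces of tissue were measured, and fewer cells of a type and less RNA per cell cannot be told apart.

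Arrays of a group correlated at r = 0.977 to 0.987 over all tested probe sets in caeca, posterior midgut and hindgut, at 0.927 to 0.947 in whole larvae and at 0.871 to 0.964 in anterior midgut. Anterior midgut array 2 had the narrowest range of values, with an SD over probe sets of 1.40 log2 units against 1.59 to 1.85 on the other 14 arrays. The mean 3' minus 5' difference of the array's own mosquito control probe sets, which reads how far signal leans to transcript 3' ends, was 0.08 ± 0.26 (SD, n = 3) in hindgut and between 0.83 and 0.96 on average in the other groups. Both values touch the lower sections of the class, and their part in the results was not tested.

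The gap between the lower of the upper means and the higher of the lower means had a median of 1.64 log2 units over the 62 members, or 3.12-fold. It ran from 1.001 to 3.83 log2 units, and 36 members had a gap of at least 1.5, 17 of at least 2 and 6 of at least 3. The mean of caeca and posterior midgut stood above the mean of anterior midgut and hindgut by a median of 2.26 log2 units, or 4.77-fold. The opposite arrangement, with anterior midgut and hindgut above caeca and posterior midgut by at least 1 log2 unit, was met by 0 probe sets. At any size of gap, 547 probe sets had the pairing of caeca with posterior midgut above the gap and 425 had the opposite one. None of the 4506 probe sets with IDs starting with Pf and none of the 290 with IDs that start with a number met the rule. The Pf probe sets were dim, with a 95th percentile between 3.96 and 4.10 in the 5 groups, which leaves little room for such a gap. The numbered ones are few, so nothing is read from these counts.

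**Figure D1:**
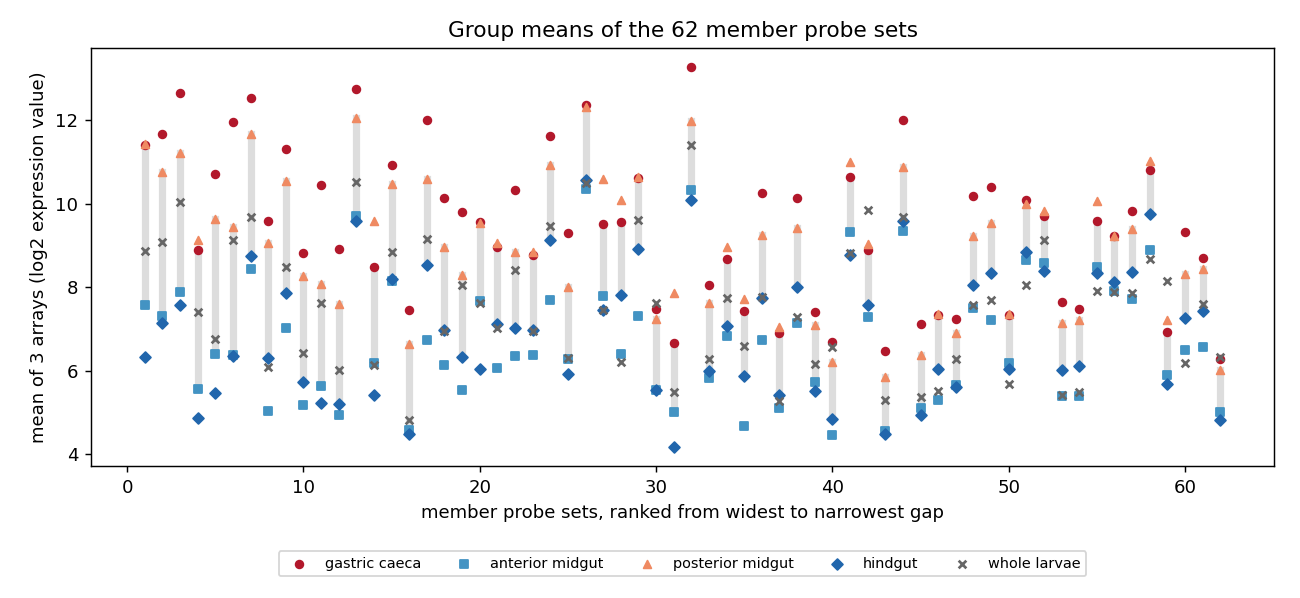
Mean log2 expression value of 3 arrays per group for each of the 62 members, ranked along the x axis from the widest to the narrowest gap, with grey bars for the gap. Gaps fall from 3.83 to 1.001 log2 units, and whole larvae (crosses) lie within the gap for 33 members.

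On the log2 scale their median level was 9.56 in caeca and that in posterior midgut 9.10, where all tested probe sets had medians of 5.08 and 5.09. In the lower sections the members' medians were 6.40 in anterior midgut and 7.003 in hindgut, and in whole larvae the median was 7.61. As a background, the 95th percentile of the probe sets with numbered IDs was used, which lay between 5.29 and 5.83 in the 5 groups. All 62 members exceeded it in both upper sections, 53 exceeded it in hindgut and 41 in anterior midgut. Of all tested probe sets 41.2% exceeded it in caeca, 35.6% in posterior midgut, 42.6% in hindgut and 27.7% in anterior midgut. For 41 members both lower sections were above this background. Another 9 were below it in both lower sections and 12 in anterior midgut only, so their folds rest on levels within the background range. The cutoff was higher in anterior midgut (5.83) than in hindgut (5.31), which adds to the 12. Ag.2R.550.0_UTR_a_at, at 5.53 in anterior midgut and 5.54 in hindgut, is 1 of them.

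The 2 members with the widest gaps show the pattern on every array. Ag.2L.223.0_CDS_at stood at 11.42, 11.50 and 11.29 on caeca arrays 1 to 3 and at 11.26, 11.52 and 11.49 on posterior midgut arrays. It read 8.14, 6.44 and 8.14 in anterior midgut and 5.47, 7.24 and 6.30 in hindgut. Its 6 upper values lay close together, while the lower ones were spread widely, and the highest of them was 3.12 log2 units below the lowest upper value. Whole larvae gave 7.90, 8.67 and 10.06, between the upper and lower sections on 2 of 3 arrays and with the array 1 value among the anterior midgut ones.

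Ag.3L.637.0_CDS_at read 11.73, 11.94 and 11.30 in caeca and 10.75, 11.13 and 10.40 in posterior midgut. Anterior midgut gave 7.95, 6.40 and 7.57 and hindgut 6.70, 7.82 and 6.93, with a gap of 3.45 log2 units. The values of the upper sections did not overlap those of the lower ones. Its 3 whole-larva values, 9.05, 9.20 and 9.01, lay close together and inside the gap.

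Over the class, the 6 caeca and posterior midgut arrays all exceeded the 6 anterior midgut and hindgut arrays for 57 of 62 members, an arrangement found for 1.24% of all tested probe sets. The rule chose members by these same values, so nothing is read from that share. In the remaining 5 members the arrays overlapped by 0.001 to 0.69 log2 units, at gaps of 1.001 to 1.73.

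Probe sets at the edge of the threshold differed in how far their arrays were separated. Just inside, Ag.2L.3183.0_at had a gap of 1.001, with caeca at 7.31, 5.78 and 5.78, posterior midgut at 6.86, 5.75 and 5.43, anterior midgut at 5.77, 3.53 and 5.75 and hindgut at 5.06, 4.44 and 4.96. Its low anterior midgut mean rests on array 2. Ag.3R.547.0_CDS_at, also just inside with a gap of 1.02, was tighter, and its caeca (8.62 to 8.78) and posterior midgut arrays (8.38 to 8.52) stayed above those of anterior midgut (5.83 to 7.51) and hindgut (7.08 to 7.82). Just outside were Ag.2R.1661.0_CDS_at with a gap of 0.99 and Ag.3L.2536.0_at with a gap of 0.98. Members and non-members near the threshold thus hardly differ in gap.

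**Figure D2:**
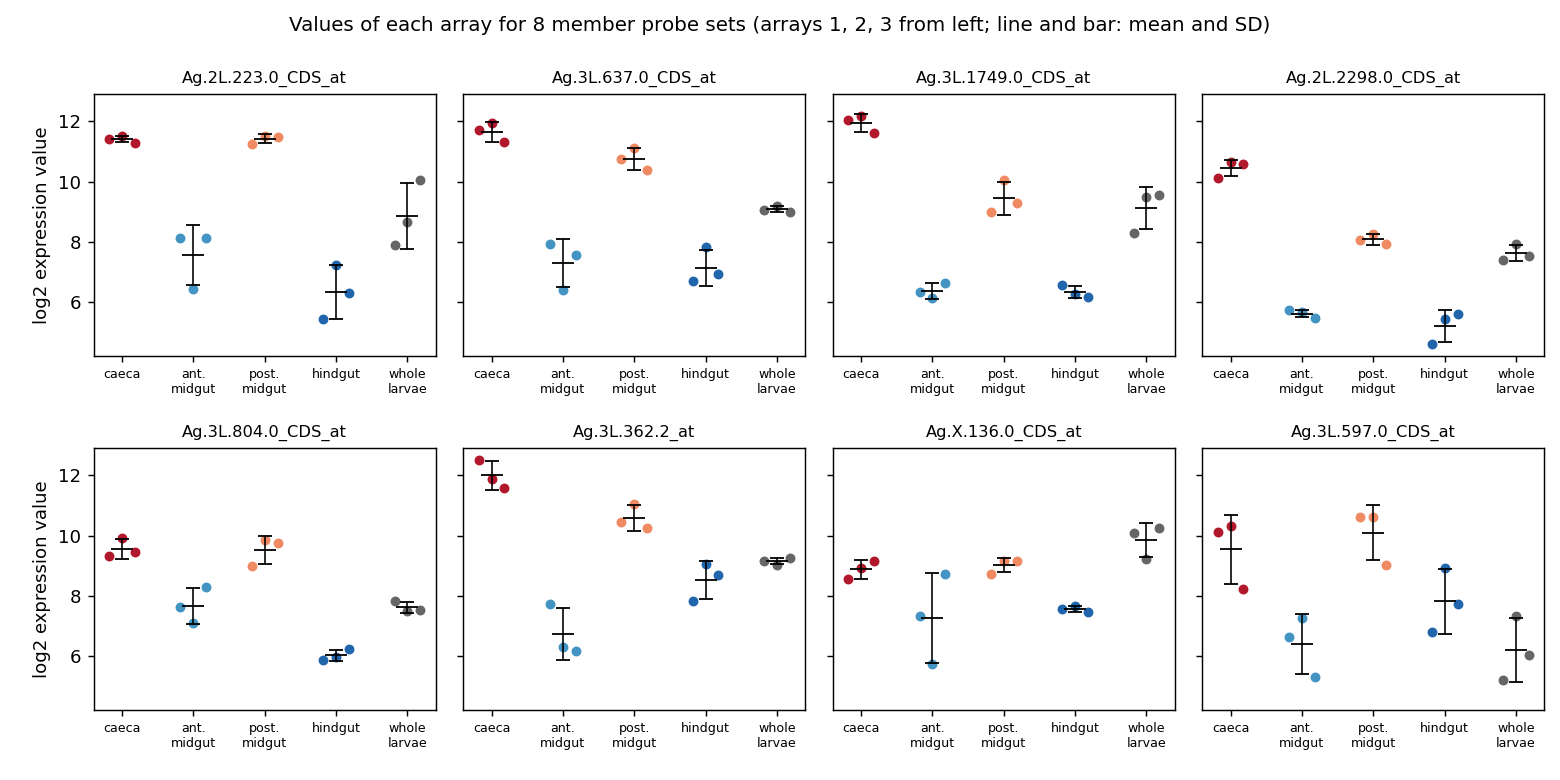
Log2 expression value of each array (points, arrays 1 to 3 from the left) with mean and SD (line and bar, n = 3) in the 5 groups for 8 members. The caeca and posterior midgut means stand above the anterior midgut and hindgut means in every panel, while whole larvae range from below all sections on average (Ag.3L.597.0_CDS_at) to above them (Ag.X.136.0_CDS_at).

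The rule depended on single arrays for 27 members and not for the other 35. With each of the 12 section arrays left out in turn, between 55 and 78 probe sets met the rule, and 35 of the 62 members did so every time. Those 35 had gaps from 1.15 to 3.83 with a median of 1.79, whereas the other 27 had a median gap of 1.18. The array whose removal cost most members was anterior midgut array 2, without which 50 of the 62 remained and 7 other probe sets joined. It was the lowest anterior midgut array for 44 members. Hindgut array 1 was likewise the lowest of its group for 44, and posterior midgut array 3 for 36. Such shares were not computed over all tested probe sets. Without anterior midgut array 1, 18 probe sets joined and 2 left, and without array 3, 19 joined and 5 left.

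Applied within a replicate number, with 1 array per section, the rule was met by 80 probe sets in replicate 1, 95 in replicate 2 and 35 in replicate 3. Of the 62 members 45, 35 and 29 were among them, 15 in all 3 replicates, 26 in 2, 12 in 1 and 9 in none. The 15 had gaps of at least 1.36 and a median of 2.55 log2 units. Scaling mattered too. When the values were quantile normalized again 83 probe sets met the rule, 52 of them members, and after centring of the arrays on their medians 58 did, 56 of them members.

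**Figure D3:**
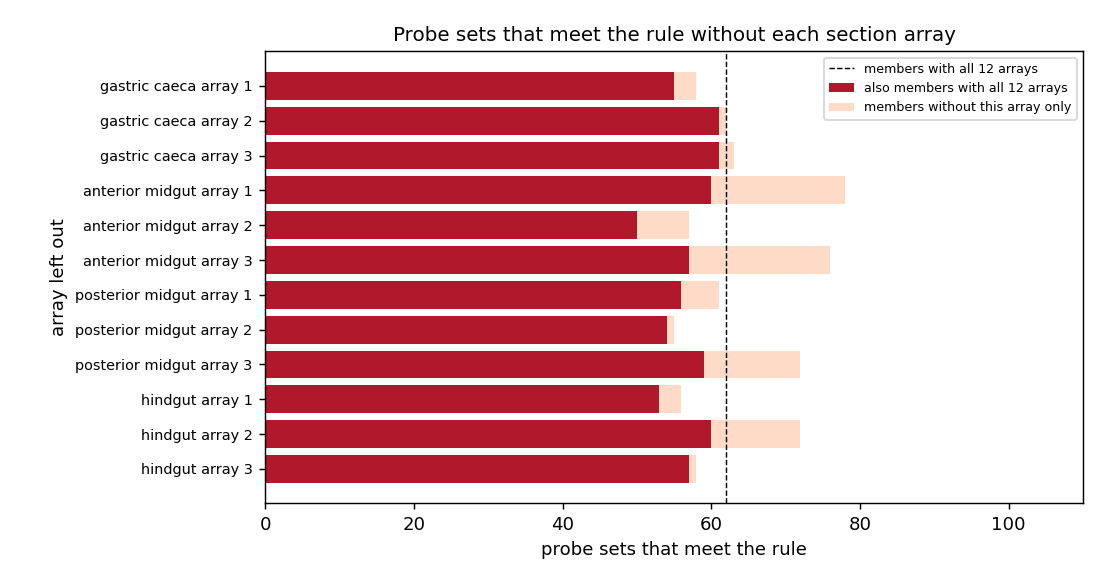
Number of probe sets that meet the rule without each of the 12 section arrays (bars from 0), split into those that are also members with all arrays (dark) and those that join (light), with the full count of 62 as a dashed line. Counts run from 55 to 78, and leaving out an anterior midgut array moves the most probe sets.

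The whole-larva arrays took no part in the rule, but the mean of the 4 sections is built from the arrays that chose the members, and a gap above dim sections raises it. Whole larvae against that mean are therefore given as a description, with nothing read from the counts. In a linear model over all 15 arrays and 16884 probe sets (limma, Benjamini-Hochberg adjustment, adjusted p under 0.05 and at least 2-fold), 16 members were lower in whole larvae than in the section mean and 4 were higher. Of all tested probe sets 2.88% were lower and 4.79% higher, and of the 8681 probe sets above the numbered-ID background in at least 1 group 5.82% and 9.71%. The other 42 members did not pass.

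The median difference of whole larvae from the section mean was -0.62 log2 units over members and -0.04 over all tested probe sets, with a range of -2.27 to 1.73. Within replicate numbers, whole larvae were below the section mean in all 3 for 37 members and above it in all 3 for 5, against 30.6% and 19.4% of all tested probe sets. Whole-larva arrays had a median SD of 0.51 among members, close to the 0.54 of anterior midgut and above the 0.30 of caeca. Over all tested probe sets the median SD was 0.19 in whole larvae, 0.26 in anterior midgut and 0.14 in caeca. Without whole-larva array 1 the lower calls were 9, and without array 1, 2 or 3 the higher calls were 2 each.

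In Ag.X.136.0_CDS_at, and in no other member, all 3 whole-larva arrays exceeded all 12 section arrays, an arrangement found for 3.46% of all tested probe sets. It read 10.10, 9.22 and 10.24 in whole larvae, and no section array exceeded 9.17. Caeca gave 8.56, 8.93 and 9.17, posterior midgut 8.75, 9.17 and 9.17, anterior midgut 7.34, 5.75 and 8.73 and hindgut 7.59, 7.67 and 7.46. Anterior midgut array 3 reached the level of the upper sections, while array 2 was the lowest value of all. Whole larvae exceeded the section mean by 1.66 ± 0.42 log2 units (SE), or 3.17-fold. Without whole-larva array 1 or 3 the difference was 2.91-fold and 2.77-fold and no longer passed.

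No member had all 3 whole-larva arrays below all 12 section arrays, where 1.67% of all tested probe sets did. The lowest whole-larva level relative to the sections was that of Ag.3L.597.0_CDS_at, whose whole-larva arrays read 5.22, 7.33 and 6.05. Its caeca values were 10.11, 10.31 and 8.24, its posterior midgut values 10.62, 10.62 and 9.04, its anterior midgut values 6.64, 7.28 and 5.31 and its hindgut values 6.80, 8.93 and 7.74. Whole larvae overlapped the anterior midgut and the lowest hindgut array, and every group of this member was widely spread. The difference from the section mean was -2.27 ± 0.60 log2 units (SE).

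By position, the whole-larva mean fell inside the gap for 33 members, between the lower sections for 16, below all 4 sections for 8, above all 4 for 4 and between the upper sections for 1. Members with whole larvae inside the gap had a median gap of 1.81 log2 units, and those with whole larvae below all sections one of 1.12. A wide gap holds any given level more readily than a narrow one, so nothing is read from this contrast. All 3 whole-larva arrays lay inside the gap for 20 members. Across the 62 members, the whole-larva mean correlated with the section mean at r = 0.868, a description over probe sets that share the same 15 arrays. Of the 97 probe sets that pair caeca with hindgut by the same rule, 27 had whole larvae inside the gap, with a median difference from the section mean of 1.56 log2 units against -0.62 here. Of the 50 that pair posterior midgut with hindgut, 30 did, and their median difference was -0.56. So did 11 of the 22 that pair anterior with posterior midgut, with a median difference of -0.74. Of the 8 that pair caeca with anterior midgut 7 did, at -0.46. No test of these differences between classes was made.

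**Figure D4:**
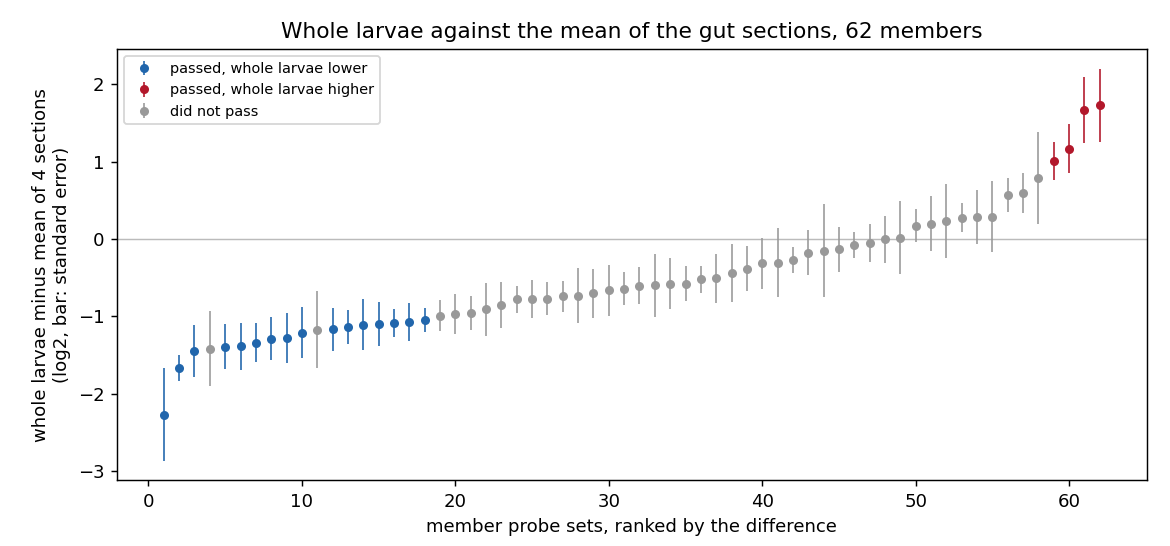
Difference of whole larvae from the mean of the 4 gut sections for each member (points, log2, ranked along the x axis) with its standard error (bars). Of 62 members, 16 passed as lower in whole larvae and 4 as higher, and the values run from -2.27 to 1.73.

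Against whole larvae, the comparison the study's design names, the members were high in the upper sections. In caeca 48 members exceeded whole larvae and 0 were lower (limma), where 4.24% of all tested probe sets were higher and 3.9% lower. In posterior midgut 41 were higher and 0 lower, against 3.72% and 5.17% of all tested probe sets. At an unadjusted p under 0.05 there were 54 higher members in caeca (9.96% of all tested probe sets) and 48 in posterior midgut (11.5%), and 0 lower in both (11.3% and 12.5%). The section arrays in these comparisons also chose the members, so nothing is read from these counts. The comparisons share the 3 whole-larva arrays.

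Higher in both sections were 39 members, against 2.22% of all tested probe sets, with a median of 4.72-fold in caeca and 3.60-fold in posterior midgut. A further 9 were higher in caeca only, 2 in posterior midgut only and 12 in neither, where "only" refers to passing the threshold. For those 12 the difference from whole larvae ran from -1.22 to 1.90 log2 units in caeca and from -0.95 to 1.34 in posterior midgut. Of the 375 probe sets higher in both sections than in whole larvae, 336 were not members.

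Ag.3L.332.0_CDS_at had the largest difference between caeca and whole larvae among members, at 3.93 ± 0.40 log2 units (SE), or 15.3-fold. Caeca arrays read 10.67, 10.93 and 10.51 and posterior midgut arrays 9.37, 9.98 and 9.53. Anterior midgut gave 6.33, 6.14 and 6.71, hindgut 4.94, 5.56 and 5.92 and whole larvae 5.60, 7.33 and 7.38. Every value of the upper sections exceeded every other value. Whole-larva array 1 lay with the hindgut and the other whole-larva arrays above both lower sections.

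In posterior midgut the largest difference was that of Ag.3L.597.0_CDS_at, given above, at 3.89 ± 0.76 log2 units or 14.8-fold, and from 10.6- to 22-fold with single arrays left out. This member was also among those with the largest rise in both sections, at 10.2-fold in caeca, which was 16.1-fold without caeca array 3 and no longer passed without caeca array 2 (adjusted p = 0.057). Caeca array 3, posterior midgut array 3 and anterior midgut array 3 were each its lowest array of the group. The other member of that kind, Ag.2L.1601.0_CDS_at, read 10.08, 10.02 and 8.63 in caeca and 9.89, 9.30 and 7.97 in posterior midgut. Its whole-larva values were 5.28, 6.86 and 6.10, giving 11.3-fold in caeca and 7.86-fold in posterior midgut. Array 3 was again the lowest in both upper sections, and anterior midgut, at 5.21, 4.94 and 4.99, was the group with the smallest spread.

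Ag.3L.1385.0_CDS_at was 11-fold higher in posterior midgut than in whole larvae. It read 8.99, 10.20 and 9.58 in posterior midgut and 8.22, 8.97 and 8.26 in caeca. Anterior midgut gave 5.93, 6.56 and 6.08, hindgut 4.94, 5.83 and 5.49 and whole larvae 5.94, 6.69 and 5.77. Array 2 was the highest in all 5 groups for this member, and whole larvae overlapped anterior midgut.

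The lower sections were compared with whole larvae in the same way. Anterior midgut was lower than whole larvae for 18 members and higher for 0 (limma), against 7.95% and 2.35% of all tested probe sets, and at an unadjusted p under 0.05 for 29 and 1, against 17.6% and 19.6%. Without anterior midgut array 2, 1 member was higher. Hindgut was lower for 14 members and higher for 1, against 4.05% and 7.29%. These sections too were used by the rule. With only the compared groups fitted, fewer members were lower in anterior midgut than in whole larvae. Both lower sections were below whole larvae for 10 members and at least 1 of them for 22, against 2.83% and 9.17% of all tested probe sets.

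Ag.3L.1749.0_CDS_at had the largest difference in both lower sections, at 6.73-fold below whole larvae in anterior midgut and 6.86-fold in hindgut. Its values were 6.36, 6.13 and 6.65 in anterior midgut, 6.57, 6.29 and 6.20 in hindgut and 8.31, 9.50 and 9.57 in whole larvae. The lower sections overlapped each other and lay below every whole-larva array. In anterior midgut it was followed by Ag.X.136.0_CDS_at, at 5.98-fold below whole larvae, or 3.52- and 9.90-fold without anterior midgut arrays 2 and 3. In hindgut Ag.2L.223.0_CDS_at followed with 5.82-fold, or 3.86-fold without whole-larva array 3.

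The single member higher in hindgut than in whole larvae was Ag.3R.237.0_CDS_at. It read 7.21, 7.50 and 7.11 in hindgut and 5.62, 6.36 and 6.58 in whole larvae, 2.12-fold apart, and the difference fell below 2-fold without hindgut array 2 (1.96-fold) or whole-larva array 1 (1.74-fold). Without whole-larva array 3, 2 members were higher in hindgut, and without hindgut array 2 or whole-larva array 1 there were 0. Caeca, at 9.36, 9.37 and 9.27, and posterior midgut, at 8.35, 8.37 and 8.21, were even across arrays and did not overlap each other. Whole larvae were below the section mean by 1.66 ± 0.17 log2 units (SE) for this member, and anterior midgut overlapped whole larvae at 6.22, 6.44 and 6.81.

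Within the upper pair the rule keeps the difference between caeca and posterior midgut below the gap but does not set its direction. The arrays compared also chose the members, so nothing is read from the counts and p-values that follow. Caeca exceeded posterior midgut on average for 41 members and fell short for 21, with a median difference of 0.42 log2 units over members and -0.02 over all tested probe sets. After renewed quantile normalization the members' median was 0.23, with 4 members higher in caeca and 1 in posterior midgut. Tested in the same model on the deposited scale, 7 members were higher in caeca and 0 in posterior midgut, where 1.68% of all tested probe sets were higher in caeca and 0.77% in posterior midgut. Among probe sets above background in at least 1 group, 3.62% were higher in caeca and 1.7% in posterior midgut. At an unadjusted p under 0.05 the members' counts were 18 and 3, against 5.14% and 3.69% of all tested probe sets. The difference ran in the direction of caeca in every replicate number for 37 members and in that of posterior midgut for 8, against 19.1% and 22% of all tested probe sets.

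Same-numbered caeca and posterior midgut arrays deviated together, and with the replicate number as a block 8 members were higher in caeca and 1 in posterior midgut. Higher counts were 4 without caeca array 2, caeca array 3 or posterior midgut array 3, and without posterior midgut array 3 there was 1 member higher in posterior midgut. A missing call is not a sign of equal levels. The 95% interval of the difference stayed within 2-fold in either direction for 13 members and reached past it for 49. These intervals rest on the spread over all groups, anterior midgut included. When only the compared groups were fitted, more members passed as higher in caeca.

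Ag.3L.1749.0_CDS_at differed most, at 12.04, 12.18 and 11.63 in caeca and 8.997, 10.05 and 9.29 in posterior midgut. Caeca were higher by 2.50 ± 0.33 log2 units (SE), or 5.66-fold (limma, adjusted p = 0.00052). Its gap of 3.07 to the lower sections was wider still, and without posterior midgut array 2 it left the class. Posterior midgut overlapped whole larvae, so that this member was high in caeca and intermediate in posterior midgut.

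Ag.2L.2298.0_CDS_at came next, at 10.14, 10.65 and 10.57 in caeca and 8.06, 8.28 and 7.93 in posterior midgut. The difference was 2.36 ± 0.24 log2 units, or 5.15-fold (limma, adjusted p = 4.4e-05). Anterior midgut read 5.73, 5.67 and 5.49, hindgut 4.63, 5.44 and 5.62 and whole larvae 7.42, 7.93 and 7.53. The 3 tiers of caeca, posterior midgut with whole larvae, and the lower sections did not overlap. Both lower sections were below the background of the numbered IDs, at means of 5.63 in anterior midgut and 5.23 in hindgut. Without caeca array 1 or posterior midgut array 2 this member left the class. Its difference between caeca and posterior midgut was nearly as wide as its gap of 2.46.

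**Figure D5:**
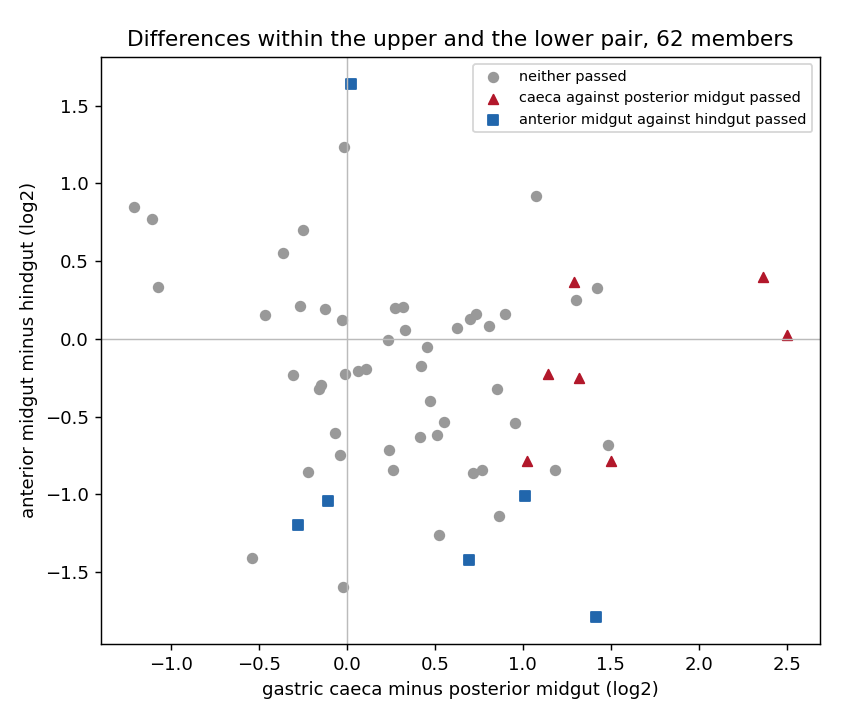
Difference of gastric caeca from posterior midgut (x axis, log2) and of anterior midgut from hindgut (y axis, log2) for the 62 members, marked by which comparison passed. The 7 members that passed on the x axis all lie to the right of 0, and of the 6 that passed on the y axis 5 lie below 0.

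Within the lower pair, anterior midgut exceeded hindgut on average for 25 members and fell short for 37. Here too the arrays compared chose the members, so nothing is read from the counts and p-values. The median difference was -0.23 log2 units over members and 0.10 over all tested probe sets. In the model 5 members were lower in anterior midgut and 1 higher (limma), where 11.9% of all tested probe sets were lower and 3.16% higher, or 23.5% and 5.56% of those above background in at least 1 group. That background is larger than the members' share, which the rule limits by keeping the difference below the gap. The direction depended on scaling. After renewed quantile normalization the median over members was 0.16 and 1 member was lower and 9 were higher, whereas centring on array medians, which moved the median of all tested probe sets from 0.10 to 0.00, left the members at -0.33. The lower calls were also 3 without anterior midgut array 2 or hindgut array 2, 10 without anterior midgut array 3 and 8 without hindgut array 1. The higher calls were 2 without anterior midgut array 2 or hindgut array 2. Hindgut is also the section with the low 3' minus 5' control value, whose part in these counts was not tested. The 95% interval stayed within 2-fold for 16 members. With only the compared groups fitted, fewer members were lower in anterior midgut than in hindgut.

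Ag.3L.804.0_CDS_at was the member higher in anterior midgut. It read 7.63, 7.10 and 8.30 there and 5.89, 5.98 and 6.24 in hindgut, a difference of 1.64 ± 0.29 log2 units or 3.12-fold (limma, adjusted p = 0.00095), and the groups did not overlap. Caeca gave 9.31, 9.92 and 9.45 and posterior midgut 9.004, 9.86 and 9.74. These upper sections were nearly level, and whole larvae, at 7.83, 7.51 and 7.55, stood with anterior midgut.

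Ag.3L.362.2_at had the largest difference among the 5 members that passed as lower in anterior midgut. It read 7.74, 6.31 and 6.18 in anterior midgut and 7.83, 9.07 and 8.70 in hindgut, 1.79 ± 0.41 log2 units lower (limma, adjusted p = 0.0053), and the groups did not overlap, although their nearest arrays were close. The difference was -0.96 and did not pass after renewed quantile normalization (adjusted p = 0.13). Caeca, at 12.53, 11.89 and 11.59, and posterior midgut, at 10.45, 11.07 and 10.25, were far above both. Among those 5, Ag.2R.1765.0_CDS_at followed with 1.42 ± 0.36 units (limma, adjusted p = 0.009), at 7.80, 6.66 and 8.65 against 8.89, 9.32 and 9.17. These groups did not overlap either. The fold fell from 2.68 to 1.87 without anterior midgut array 2, and after renewed quantile normalization the difference was -0.54 (adjusted p = 0.15).

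The order of the 4 section means split the class. Caeca, posterior midgut, hindgut, anterior midgut from high to low was the order of 26 members, with a median gap of 1.67. Caeca, posterior midgut, anterior midgut, hindgut was that of 15, with a median gap of 1.86. Posterior midgut came first in 21 members, followed by caeca, hindgut and anterior midgut in 11 and by caeca, anterior midgut and hindgut in 10, with median gaps of 1.58 and 1.48. Differences within the upper and the lower pair were only loosely related across members, at r = -0.155, given as a description.

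Some members share an ID stem with other probe sets, that is, the same first 3 fields of the ID, and such partners may read the same transcript, although no source used here defines these fields. Of the 62 members 12 had such a partner. Ag.3R.236.0_CDS_a_at and Ag.3R.236.1_a_at were both members and correlated at r = 0.928 over the 15 arrays, so they may count 1 transcript more than once. The other 10 had 14 partner probe sets outside the class. Of these, 7 had both upper sections above both lower ones, an arrangement met by 13.5% of all tested probe sets. A higher mean over caeca and posterior midgut than over anterior midgut and hindgut was found in 12. The share of all tested probe sets with such a mean was not computed, so nothing is read from the 12. The median difference between upper and lower sections over the partners was 0.52 log2 units. Partners outside the class failed the rule, which favours small differences, so nothing is read from this value beside that of the members. All 7 were among the 10 partners above background in at least 1 group.

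The partners of the 2 widest-gap members that have any differed from them. Ag.2L.1804.2_a_at stood at 7.45 ± 0.65 (SD, n = 3) in caeca and reached 6.64 ± 0.61 in posterior midgut, compared with 4.58 ± 0.30 in anterior midgut and 4.49 ± 0.28 in hindgut, with whole larvae at 4.82 ± 0.10. Its partner Ag.2L.1804.1_a_at had another profile across the sections, at means of 9.70, 10.21, 10.67 and 8.84 in caeca, anterior midgut, posterior midgut and hindgut. Anterior midgut, a low section of the member, thus read higher than caeca in the partner.

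Ag.3L.362.0_CDS_a_at, the partner of Ag.3L.362.2_at, averaged 11.80 in posterior midgut and 10.90 in hindgut, but 5.63 in caeca and 5.91 in anterior midgut. Its caeca arrays read 5.77, 5.38 and 5.72, where those of the member read 12.53, 11.89 and 11.59. The stem thus held a probe set high in caeca and posterior midgut and another high in posterior midgut and hindgut, and their profiles correlated at r = 0.069 over the 15 arrays. Closer partners existed as well, and correlations between a member and a partner outside the class ran from -0.661 to 0.970 with a median of 0.398.

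In the second field of the ID, 19 members (30.6%) carry 3L, compared with 14.8% of all tested probe sets and 16.6% of the 1866 probe sets whose sections are split by a gap of at least 1 log2 unit in any arrangement. The field reads 2R for 16 members (25.8%, against 26.3% of all tested probe sets) and 2L for 12 (19.4% against 20.3%). It reads 3R for 10 (16.1% against 18.8%) and X for 5 (8.06% against 8.31%). UNKN stands in 0 members, where 11.5% of all tested probe sets and 5.57% of those 1866 carry it. Members with 3L had a median gap of 2.05 log2 units and the others one of 1.32, and 6 of the 10 widest gaps carry 3L. These are counts without a test, and the meaning of the field is not given in the sources used here. Consecutive numbers in the third field joined Ag.3L.198.0_CDS_at and Ag.3L.199.0_CDS_at, which correlated at r = 0.922 over the 15 arrays, and the Ag.3R.236 members with Ag.3R.237.0_CDS_at at 0.533 and 0.718. CDS stands in the IDs of 80.6% of members and 83.3% of tested probe sets, and UTR in those of 6.45% and 4.68%.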

How the data were processed

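The authors deposited 1 log2 expression value per probe set and array, for which the submitters' processing notes name RMA. Its version is not given in the sources used here, and the values themselves show the log2 scale. The number of arrays limits precision, and arrays give no counting depth. All 16884 probe sets with IDs starting with Ag were tested, with no filter. A model with 1 mean per group was fitted to 15 arrays in limma 3.58.1 (R 4.3.3, lmFit and eBayes). The p-values were adjusted over all tested probe sets within a contrast. A check on simulated data covered only whole larvae against the section mean. It drew independent values with the same spread in every group. It therefore does not cover groups of unequal spread or same-numbered arrays that deviate together. A call needs an adjusted p under 0.05 and at least 2-fold.

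Same-numbered arrays deviated together (every correlation over 0.1) for caeca with posterior midgut (0.300 to 0.350). So did those of whole larvae with caeca (0.268 to 0.350), with posterior midgut (0.172 to 0.257) and with the section mean (0.181 to 0.353). The reported model has no pairing term, so its standard errors and p-values are unpaired. Replicate numbers were used only in the counts within replicate numbers and in the alternative fit with a replicate block. Per the labels' protocols, the guts of each repeat were divided into all 4 sections, but anterior midgut and hindgut arrays of a number did not deviate together (-0.276 to -0.090), nor did every pair of whole larvae with either (-0.037 to 0.159 and 0.040 to 0.139).

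The members, lists and tests were chosen with earlier results of these data known. Named probe sets are the widest gaps, those at the threshold, up to 2 rises and 2 falls per comparison whose arrays do not overlap, the 2 with the largest rise in both upper sections over whole larvae, and the 2 widest gaps with an outside stem partner. Stem members and those with consecutive numbers, the closing values and Ag.3L.597.0_CDS_at in the comparison with the section mean were named after their values were seen. Alternatives were other scalings, a filter on dim probe sets, fits of fewer groups, a replicate block, array weights, another prior, other thresholds, arrays left out and the methods' t-test. IDs starting with a sequence accession (937) or the maker's control prefix (144) were not tested.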

Additional observations from a re-analysis of the deposited data

Results flagged for a closer look

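Caeca and posterior midgut, or anterior midgut and hindgut, differed from each other in their relation to whole larvae for 13 members, by the test of the difference itself in the common model. Caeca exceeded posterior midgut for 7 of them, by 2.50 log2 units in Ag.3L.1749.0_CDS_at and 2.36 in Ag.2L.2298.0_CDS_at, and by 1.5, 1.32, 1.29, 1.14 and 1.02 in the other 5. Anterior midgut exceeded hindgut by 1.64 in Ag.3L.804.0_CDS_at. It differed from hindgut by -1.79 in Ag.3L.362.2_at and by -1.42 in Ag.2R.1765.0_CDS_at, and by -1.20, -1.04 and -1.01 in 3 others. The rule bounds these differences and used the same arrays, so nothing is read from the number of members listed. The 3' minus 5' level of the control probe sets given above was lower in hindgut, and its part in the lower pair was not tested. Groups of 3 arrays are too small to mark single arrays as far from the others.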

How the results depend on the processing

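Of 265 recomputed counts, 208 stayed within 1.5 times the reported count. Of 285 recomputed differences of single named probe sets, 258 kept direction and call, 27 kept direction only and 0 reversed. The class held 94, 36 and 17 probe sets at gaps of 0.75, 1.5 and 2, 95 and 35 within replicate numbers 2 and 3, and 55 to 78 with single arrays left out. Counts below are members higher and members lower, the first-named group against the second. Quantile normalization gave 1 higher for whole larvae against the section mean, 4 and 1 for caeca against posterior midgut, 9 and 1 for anterior midgut against hindgut, 3 higher for anterior midgut and 0 higher for hindgut against whole larvae. Array weights gave 12 and 2 for caeca against posterior midgut, 4 and 9 for anterior midgut against hindgut and 2 higher for hindgut against whole larvae. Those weights did not converge, and anterior midgut array 1 weighed 84.2 against 0.115 and 0.211 for arrays 2 and 3. Fitting only the compared groups gave 12 higher for caeca against posterior midgut, 3 lower for anterior midgut against hindgut and 8 lower for anterior midgut against whole larvae. That fit equals the reported one for the section mean and was not repeated there. With the replicate number as a block 1 member was lower in caeca than posterior midgut and 3 were higher in hindgut than whole larvae, and no other count moved by over 1.5 times. With no minimum fold 9 were lower in anterior midgut than hindgut. At 4-fold the counts were 0 and 1 for the section mean, 2 higher for caeca against posterior midgut, 0 and 0 for anterior midgut against hindgut, and, against whole larvae, 30 higher in caeca, 15 higher in posterior midgut, 10 lower in anterior midgut, and 0 and 8 in hindgut. The methods' t-test at unadjusted p gave 2 higher in hindgut than whole larvae, and after Benjamini-Hochberg 11 higher in caeca, 3 higher in posterior midgut, 0 lower in anterior midgut, and 0 and 5 in hindgut. With arrays left out, the counts were 2 to 4 and 9 to 19 for the section mean, 4 to 6 and 0 to 1 for caeca against posterior midgut, and 1 to 2 and 3 to 10 for anterior midgut against hindgut. Against whole larvae they were 42 to 47 and 0 in caeca, 36 to 40 and 0 in posterior midgut, 0 to 1 and 14 to 21 in anterior midgut, and 0 to 2 and 12 to 17 in hindgut. Apart from fewer samples and changed thresholds, the cause was not tested.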
